A study of Mus musculus with 12 samples.

Results

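A set of 10 genes of bone morphogenetic protein (BMP) signalling and of transcriptional control, known mainly from the endothelial cells that line blood vessels, was followed in irradiated mouse lung. They are Bmpr2, Acvrl1, Eng, Tmem100, Id1, Id3, Sox17, Erg, Foxf1 and Fendrr. They were chosen with earlier results of these data known. Their rows were taken by gene symbol from the 23238 symbols of the count tables, and each of the 10 was on 1 line. RNA was sequenced from lung in 12 libraries, 3 from lung without irradiation (NoIR) and 3 each from lung taken 8 d, 11 d and 14 d after irradiation (IR_8d, IR_11d and IR_14d). Per the series description, the tissue after irradiation was taken from irradiated areas alone. The sources used here give no dose, radiation field, strain, sex or age, nor the lung region and time of the control samples, and the labels name no allele or agent other than irradiation. The replicates are numbered without a statement that each number is another animal. The p-values therefore describe the scatter among these libraries, part of which may be technical. All 3 times were compared with the same 3 unirradiated libraries, so those comparisons share their controls.

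In endothelial cells the circulating ligands BMP9 (gene Gdf2) and BMP10 bind the type I receptor ALK1 (gene Acvrl1) together with a type II receptor such as Bmpr2, and endoglin (gene Eng) presents the ligand as a co-receptor. The active receptor phosphorylates SMAD1, SMAD5 or SMAD9, which enter the nucleus with SMAD4 and switch on Id1, Id3, Smad6, Smad7 and, in mice, Tmem100. Erg, Sox17 and Foxf1 are transcription factors of the ETS, SOX and forkhead families that maintain endothelial identity, and Fendrr is a long non-coding RNA read away from Foxf1 on the opposite strand. In people, loss-of-function variants of BMPR2 can cause pulmonary arterial hypertension, and those of ACVRL1 and ENG hereditary haemorrhagic telangiectasia. Loss-of-function variants of FOXF1 can cause a failure of lung capillary development.

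The libraries held 19624554 to 27765751 counts, and 16484 genes passed the expression filter, among them all 10 genes of interest, each with at least 100 counts in every library. Rn45s, a ribosomal RNA precursor, took 1.71% to 6.27% of counts and the haemoglobin genes 0.253% to 1.79%. The alveolar type 2 markers, which include the surfactant gene Sftpc, summed to 31264 to 34768 CPM (counts per 10⁶, scaled by TMM) in unirradiated lung, and those of endothelium to 3882 to 3978 CPM. Of the lung and blood marker lists, Krt5 of airway basal cells was the only marker at 0 in any library.

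Every one of the 10 genes was lower on average after irradiation at all 3 times, and lowest at 14 d. At 8 d 7 of the 10 passed the test as lower than in unirradiated lung (edgeR quasi-likelihood F test, Benjamini-Hochberg adjusted p below 0.05 over all 16484 genes, n = 3 per group), where 10.6% of all genes tested were called lower. At 11 d 9 of the 10 were called lower, against 17.8% of all genes, and at 14 d all 10, against 18.9%. The 3 that did not pass at 8 d were Eng, Id1 and Id3, and the one that did not pass at 11 d was Id1. The median log2 change of the 10 genes was -0.90 at 8 d, -1.19 at 11 d and -1.95 at 14 d, beside 0.01, -0.01 and 0.01 over all genes tested. In CPM, all 3 libraries of 8 d lay below all 3 controls for 8 of the 10 genes (18.5% of all genes tested), and the same was true of all 10 genes at 11 d (26.7%) and at 14 d (25.0%). A single test over all 4 groups called all 10 genes, against 39.2% of all genes. Because the genes were chosen with earlier results known, the shares of all genes are given as background and not as a test of the set. In RNA from lung tissue of mixed cells, fewer cells of a type, less RNA per cell and a larger share of RNA from other cells cannot be told apart. The lung region of the controls is not given, so a difference between regions cannot be told apart from these either.

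**Figure D1:**
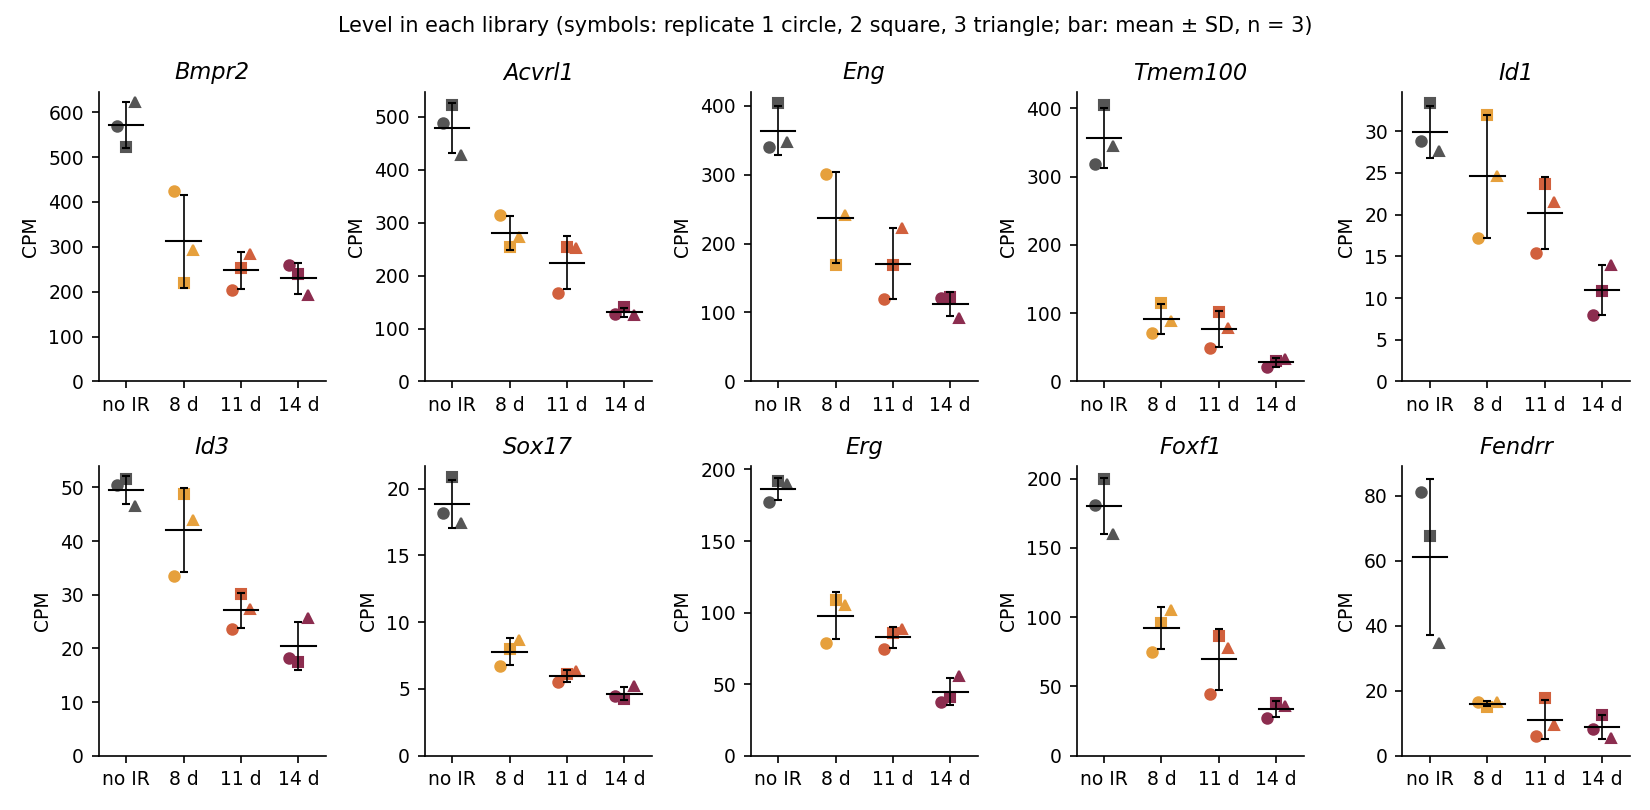
Level of each of the 10 genes in every library, in CPM on a linear axis that starts at 0, for unirradiated lung (no IR) and for 8, 11 and 14 d after irradiation. Symbols are libraries (circle, square and triangle for replicates 1, 2 and 3), and bars are the mean ± SD of 3 libraries. Tmem100 lies between 319 and 405 CPM without irradiation and between 21.0 and 33.4 CPM at 14 d, while Id1 and Id3 overlap the controls at 8 d.

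The 10 genes started from different levels. Per kilobase of annotated exon, Tmem100 was the highest in unirradiated lung at 202 ± 25.0 CPM per kb (SD, n = 3). Acvrl1 followed at 112 ± 11.1, Eng at 89.8 ± 8.71, Foxf1 at 74.6 ± 8.27 and Erg at 53.8 ± 2.30 CPM per kb. Lower down came Bmpr2 at 31.8 ± 2.83, Id3 at 27.6 ± 1.48, Id1 at 25.8 ± 2.67, Fendrr at 18.4 ± 7.20 and Sox17 at 3.95 ± 0.374 CPM per kb. Neighbours in this order did not overlap between libraries, with the exceptions of Id3 with Id1 and Id1 with Fendrr. At 14 d the highest means were those of Acvrl1 at 30.6 ± 1.91, Eng at 27.7 ± 4.33 and Tmem100 at 15.8 ± 3.58 CPM per kb. Acvrl1 and Eng overlapped between libraries there, as did Tmem100 with Foxf1, Erg, Bmpr2, Id3 and Id1.

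All 3 receptors were called lower at 11 d and 14 d, and Bmpr2 and Acvrl1 already at 8 d. All 3 had their lowest mean at 14 d. Bmpr2 encodes the type II receptor kinase (GENCODE M21 on GRCm38, chr1:59763400-59879014, plus strand) and measured 569, 522 and 624 CPM in the unirradiated libraries, 424, 220.2 and 293 CPM at 8 d, 204, 253 and 284 CPM at 11 d and 259, 239 and 192 CPM at 14 d. All irradiated libraries lay below all controls, replicate 1 of 8 d was the highest of them, and the 3 irradiated groups overlapped one another. The log2 changes of -0.87 (SE 0.21) at 8 d, -1.21 (SE 0.21) at 11 d and -1.31 (SE 0.21) at 14 d had adjusted p of 0.00784, 4.80e-04 and 1.84e-04 (edgeR quasi-likelihood test). The mean was 54.7% of the unirradiated mean at 8 d and 40.2% at 14 d.

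Acvrl1, the type I receptor ALK1 (chr15:101128522-101145336, plus strand), measured 488, 522 and 428 CPM in the unirradiated libraries, 315, 253 and 273 CPM at 8 d, 167, 254 and 253 CPM at 11 d and 127, 139.8 and 125 CPM at 14 d. The 14 d libraries lay below every other library, and 11 d replicate 1 lay below all of 8 d while 11 d replicate 2 lay just above the lowest 8 d library and replicate 3 just below it. The log2 changes of -0.77 (SE 0.16) at 8 d, -1.09 (SE 0.16) at 11 d and -1.88 (SE 0.17) at 14 d had adjusted p of 0.00320, 1.35e-04 and 1.11e-06 (edgeR). Eng, the co-receptor endoglin (chr2:32646595-32682669, plus strand), measured 340.2, 404 and 347 CPM in the unirradiated libraries, 301, 169 and 242 CPM at 8 d, 120.3, 168 and 223 CPM at 11 d and 122, 123 and 91.8 CPM at 14 d. The 8 d libraries of Eng were spread widely and lay below the controls without overlap, with replicate 1 the highest of them. Eng had log2 changes of -0.61 (SE 0.23) at 8 d, -1.09 (SE 0.23) at 11 d and -1.70 (SE 0.23) at 14 d, with adjusted p of 0.0637, 0.00188 and 4.42e-05 (edgeR), so it did not pass at 8 d (95% interval -1.10 to -0.13). At 8 d its adjusted p lay between 0.0259 and 0.2 over the alternative settings, and it passed with DESeq2 (adjusted p = 0.0324), without the expression filter (adjusted p = 0.0459), and without 8 d replicate 1 (log2 change -0.82, adjusted p = 0.0259), 11 d replicate 1 (adjusted p = 0.0390) or 11 d replicate 3 (adjusted p = 0.0471). The last 61 bases of Eng overlap Fpgs on the other strand, which measured 10.3 CPM without irradiation and 7.04 CPM at 14 d, and no source used here gives the strand setting of the counting.

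RefSeq start regions were on hand for Bmpr2, Eng, Id3, Fendrr and Erg. The 250 bases upstream of the RefSeq start are shown for the receptors here, and for Id3 and Fendrr below, because all 4 were called lower by 11 d and have 1 start each in the table, whereas Erg has 3 and is described in words (build GRCm38.p6; Bmpr2 at chr1:59764029-59764278, plus strand; Eng at chr2:32646345-32646594, plus strand). Capitals mark AGGAAG or its reverse complement CTTCCT (the ETS core, the kind of site that Erg binds), GGCGCC (a GC-rich site of SMAD1 and SMAD5) and CAGAC or its reverse complement GTCTG (the short site that SMAD4 binds). These letters were searched on both strands and were chosen with the sequences in view.
Bmpr2: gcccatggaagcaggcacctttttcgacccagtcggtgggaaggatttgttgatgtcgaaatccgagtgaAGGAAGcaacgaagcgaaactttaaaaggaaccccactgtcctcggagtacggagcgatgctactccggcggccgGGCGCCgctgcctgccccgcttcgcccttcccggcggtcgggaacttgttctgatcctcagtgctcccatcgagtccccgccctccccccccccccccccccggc
Eng: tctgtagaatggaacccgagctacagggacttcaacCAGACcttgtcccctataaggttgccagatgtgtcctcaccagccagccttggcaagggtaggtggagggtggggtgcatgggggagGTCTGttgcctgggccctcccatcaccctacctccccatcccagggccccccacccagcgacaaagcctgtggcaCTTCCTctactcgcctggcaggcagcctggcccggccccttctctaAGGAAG
The Bmpr2 window holds AGGAAG once, at -180 from the start, and GGCGCC once, at -105. The Eng window holds the ETS letters at -52 and -6 and the SMAD4 letters at -214 and -127. Of all 32851 promoters, the ETS letters are in 29.5%, GGCGCC in 9.59% and the SMAD4 letters in 42.2% of such windows, so matches of this kind are common, and they describe sequence and not binding.

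Among the other BMP receptors, the co-receptor Tgfbr3 fell most. Of 6 tested, 1 was lower at 8 d, 3 at 11 d and 3 at 14 d, with median log2 changes of -0.23, -0.62 and -0.58. Tgfbr3, the co-receptor betaglycan, fell at all 3 times (-1.04, -1.501 and -1.80, log2), while the type I receptor Bmpr1b (-1.02 and -1.37) and the type II receptor Acvr2a (-0.55 and -0.46) fell at 11 d and 14 d. Acvr2b had log2 changes of -0.12, -0.69 and -0.69 and did not pass. Bmpr1a, a type I receptor of many cell types that was named after its values were seen, did not pass either, with 124 ± 11.98 CPM without irradiation and 101 ± 12.2 CPM at 14 d (SD, n = 3; log2 change 95% interval -0.55 to -0.04).

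On the ligand side, Bmp6 fell at all 3 times, Gdf2 fell at 11 d and 14 d, and 3 antagonists were higher by 14 d. Of 12 genes listed as BMP ligands 8 were tested, of which 1 was lower at 8 d and 5 at 11 d and at 14 d, with median log2 changes of -0.37, -0.64 and -0.87. The 8 include Bmp1, named after its values were seen, which encodes a protease and not a ligand. Bmp1 was not called, with 23.8 ± 1.94 CPM without irradiation and 31.2 ± 6.36 CPM at 14 d. Bmp6, which is made in endothelium among other cells, went from 97.0 ± 15.1 CPM to 38.9 ± 3.91, 26.1 ± 6.18 and 12.7 ± 1.53 CPM (log2 changes -1.32, -1.90 and -2.93). Gdf2 encodes BMP9, which reaches the lung mainly from the liver through the blood, and its transcript was rare here, with 147 counts summed over the 3 unirradiated libraries, 62 at 8 d, 20 at 11 d and 8 at 14 d. Gdf2 had log2 changes of -0.96 (SE 0.50, not passed), -2.53 (SE 0.58) and -3.97 (SE 0.66). Bmp3 fell by 0.83 at 11 d and by 1.08 at 14 d, and Bmp4 by 0.46 and 0.67, all log2. Bmp10, the other ligand of ALK1, had no count in unirradiated and 8 d lung and 2 and 4 counts in all at 11 d and 14 d, and it stayed under the filter with Bmp8a, Gdf5 and Gdf6.

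The antagonists, which bind BMP ligands outside the cell or block their receptors, moved in both directions. Of 11 listed 9 were tested, and 2, 4 and 4 were lower and 1, 2 and 3 higher at 8 d, 11 d and 14 d, where 13.0%, 19.4% and 20.0% of all genes were called higher. Nog (noggin) rose at all 3 times, by 3.11 (SE 0.45), 2.68 (SE 0.46) and 3.36 (SE 0.44) on the log2 scale, from 14 summed counts to 103, 72 and 134. Grem1 (gremlin 1) had 8, 7, 24 and 244 summed counts and rose at 14 d, by 5.05 (SE 0.67). Fst (follistatin), which binds activins and some BMPs, rose from 2.73 ± 1.06 CPM to 5.54 ± 1.14 CPM at 11 d and 11.95 ± 3.98 CPM at 14 d. Chrdl1 (chordin-like 1) fell from 19.1 ± 0.707 to 3.36 ± 0.978 CPM at 14 d, and the decoy receptor gene Bambi fell at all 3 times, by 1.66 (log2) at 14 d. Sost and Sostdc1 were under the filter.

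**Figure D2:**
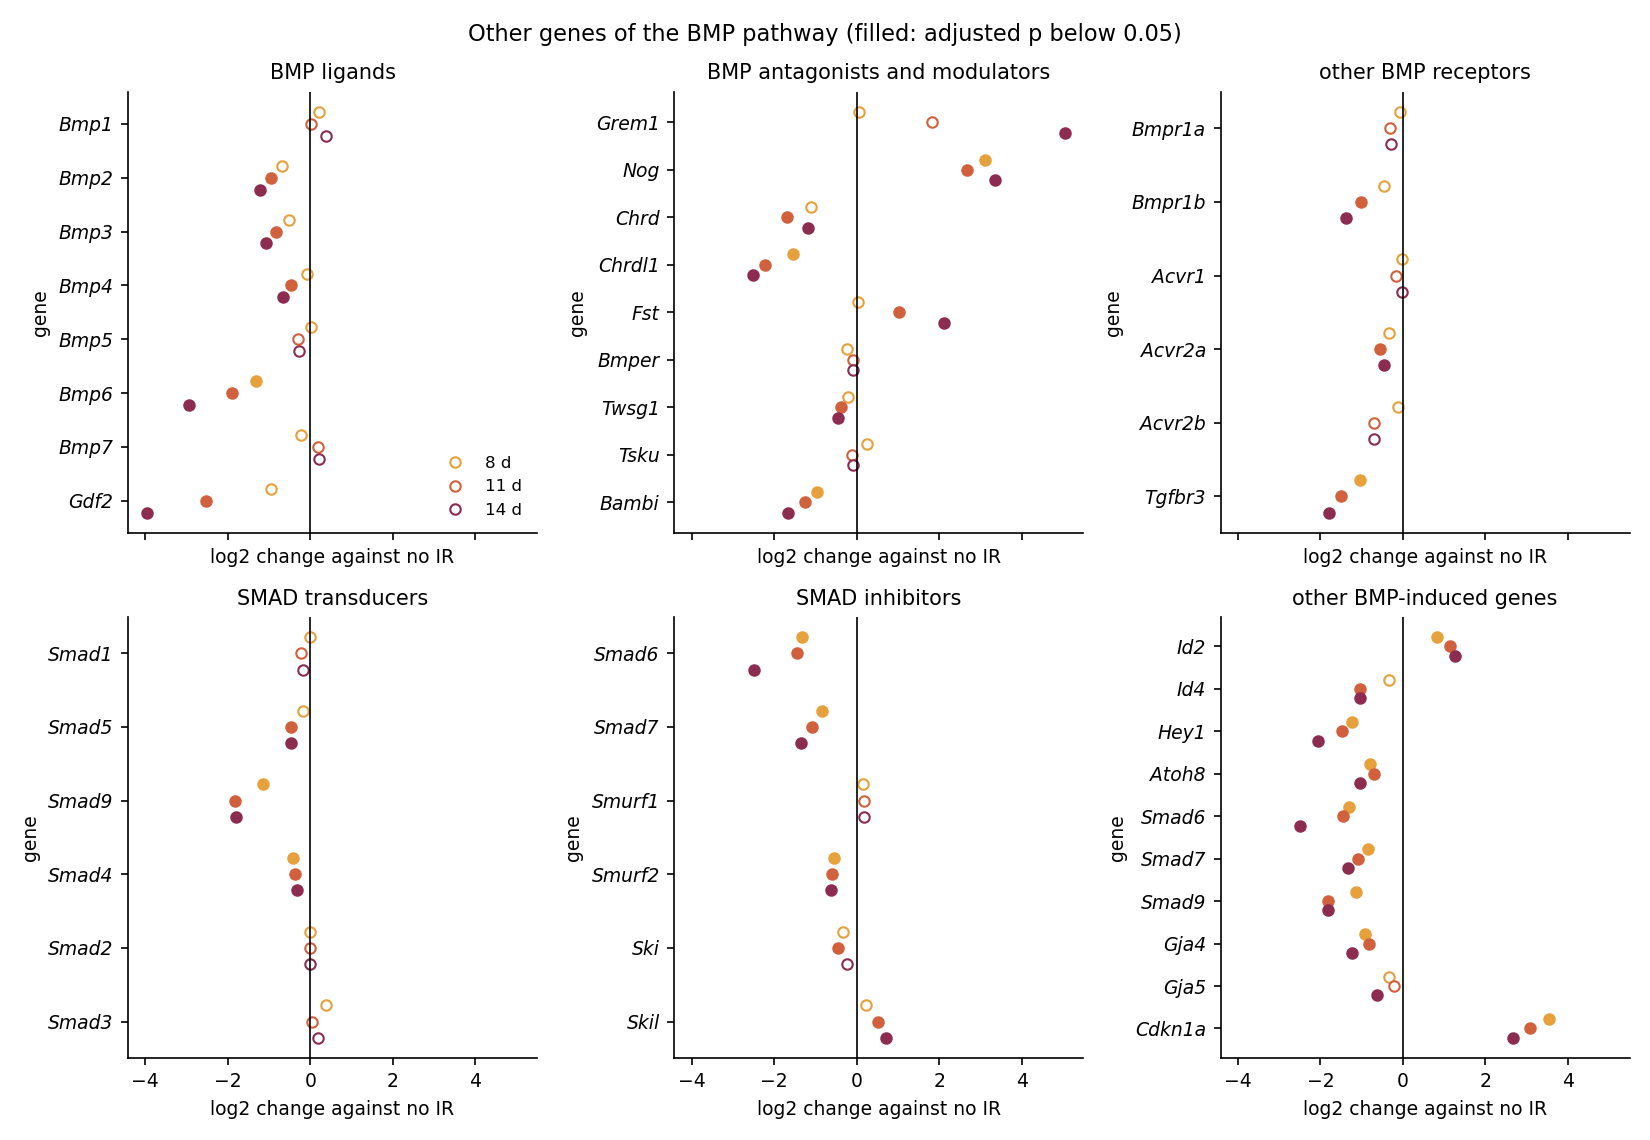
Log2 change against unirradiated lung of the tested genes of 6 BMP pathway lists at 8, 11 and 14 d after irradiation (edgeR, 3 libraries per group). Filled points have an adjusted p below 0.05. Nog, Grem1, Fst, Skil, Id2 and Cdkn1a have filled points to the right of 0, and the other filled points lie to the left. Smad6, Smad7 and Smad9 stand in 2 panels because they are on 2 lists. The ligand panel includes Bmp1, which encodes a protease and not a ligand.

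Inside the cell, Smad9 and the inhibitory Smads fell. Of 6 SMAD transducers 2, 3 and 3 were lower at 8 d, 11 d and 14 d. Smad9, a BMP-activated transducer, went from 10.7 ± 1.22 CPM to 4.85 ± 1.56, 3.05 ± 0.924 and 3.07 ± 0.634 CPM. Smad4, the shared partner, fell by 0.41, 0.38 and 0.32 (log2), and Smad5 by 0.46 and 0.47 at 11 d and 14 d. Smad3, a TGF-beta transducer, did not pass at any time (0.38, 0.03 and 0.18), nor did Smad1, named after its values were seen (-0.01, -0.22 and -0.17; 95% interval at 14 d -0.49 to 0.15). Of 6 SMAD inhibitors 3, 4 and 3 were lower, and Skil, a co-repressor of Smads, was higher at 11 d (0.52) and 14 d (0.70). Smad6, which blocks BMP receptors and is itself induced by BMP, fell from 72.8 ± 10.4 CPM to 29.2 ± 3.53 CPM at 8 d and 12.9 ± 2.75 CPM at 14 d. Smad7 fell from 64.0 ± 3.10 CPM to 25.3 ± 1.97 CPM at 14 d, and Smurf2, a ubiquitin ligase for Smads and receptors, by 0.54, 0.61 and 0.62 (log2).

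Of the 3 genes of the set that BMP signalling induces, Tmem100 had the largest log2 change at each time, and Id1 and Id3 did not pass at 8 d. Tmem100 encodes a membrane protein of endothelium (chr11:90030348-90036508, plus strand) and measured 319, 405 and 345 CPM in the unirradiated libraries, 71.0, 115 and 88.1 CPM at 8 d, 48.6, 101 and 78.8 CPM at 11 d and 21.0, 29.4 and 33.4 CPM at 14 d. Every irradiated library was below every control, and the 14 d libraries were below all of 8 d and 11 d. The log2 changes of -1.96 (SE 0.25) at 8 d, -2.23 (SE 0.25) at 11 d and -3.67 (SE 0.27) at 14 d had adjusted p of 9.06e-05, 1.54e-05 and 3.39e-07 (edgeR). Its mean stood at 25.6%, 21.4% and 7.84% of the unirradiated mean.

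Id1 and Id3 encode helix-loop-helix proteins that hold back differentiation by binding E proteins, and they are the standard transcriptional readouts of BMP signalling. Id1 (chr2:152736251-152737410, plus strand) measured 28.8, 33.4 and 27.6 CPM in the unirradiated libraries, 17.2, 31.9 and 24.6 CPM at 8 d, 15.4, 23.7 and 21.6 CPM at 11 d and 7.96, 10.9 and 13.9 CPM at 14 d. At 8 d replicate 2 lay among the controls and replicate 1 well below them, at 11 d and 14 d all libraries lay below the controls, and 14 d lay below 11 d and 8 d. Id1 had log2 changes of -0.28 (SE 0.23) at 8 d, -0.57 (SE 0.23) at 11 d and -1.45 (SE 0.24) at 14 d, with adjusted p of 0.422, 0.0723 and 2.41e-04 (edgeR). At 11 d the 95% interval was -1.07 to -0.06, and the gene passed there in a fit of only the 2 groups (adjusted p = 0.0222), and without 8 d replicate 1 (adjusted p = 0.0438) or 8 d replicate 2 (adjusted p = 0.0426), within a range of 0.0192 to 0.259 over all settings. Id3 (chr4:136143497-136145755, plus strand) measured 50.4, 51.5 and 46.5 CPM in the unirradiated libraries, 33.5, 48.7 and 44.0 CPM at 8 d, 23.6, 30.2 and 27.4 CPM at 11 d and 18.1, 17.5 and 25.6 CPM at 14 d. At 8 d replicate 2 overlapped the controls, and all later libraries lay below the controls and below 8 d. The log2 changes of -0.23 (SE 0.17) at 8 d, -0.87 (SE 0.17) at 11 d and -1.28 (SE 0.17) at 14 d had adjusted p of 0.360, 0.00133 and 4.55e-05 (edgeR).

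The 250 bases upstream of the RefSeq start of Id3 are shown because Id genes are direct SMAD targets (GRCm38.p6, chr4:136143572-136143821, plus strand; capitals as above).
Id3: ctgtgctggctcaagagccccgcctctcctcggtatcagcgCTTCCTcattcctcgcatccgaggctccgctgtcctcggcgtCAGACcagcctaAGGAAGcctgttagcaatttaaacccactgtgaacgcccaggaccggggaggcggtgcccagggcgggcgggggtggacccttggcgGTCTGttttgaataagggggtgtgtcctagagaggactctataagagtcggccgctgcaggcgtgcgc
The window holds the SMAD4 letters at -167 and -68 and the ETS letters at -209 and -155, and no GGCGCC. The last says only that these letters are not in this window.

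Most other BMP-induced genes were also lower, and Id2 and Cdkn1a were higher. Of 10 tested 6, 7 and 8 were lower at 8 d, 11 d and 14 d and 2 higher at each time, with median log2 changes of -0.81, -0.93 and -1.14 (Smad6, Smad7 and Smad9 are also on the SMAD lists, Hey1 on the transcription factor list, and Hey1, Gja4 and Gja5 among the arterial markers used further on). Hey1, a target of Notch and BMP signalling, fell from 53.9 ± 3.44 CPM to 22.7 ± 2.48, 19.5 ± 2.97 and 12.9 ± 1.69 CPM. Id2, a relative of Id1 and Id3 that is also expressed in lymphocytes and myeloid cells, rose from 59.7 ± 16.2 CPM to 106 ± 29.5, 131 ± 18.3 and 144 ± 22.9 CPM (log2 changes 0.83, 1.14 and 1.27). Beside this rise all 6 leukocyte markers, among them Ptprc (CD45), were called higher at each time, and their summed level went from 549 to 662 CPM to 1076 to 1362 CPM at 8 d and 1797 to 2196 CPM at 14 d, and their part in the result was not tested. Cdkn1a, which is also a target of p53, rose from 24.8 ± 4.86 to 287 ± 6.22 CPM at 8 d and stood at 156 ± 13.3 CPM at 14 d.

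**Figure D3:**
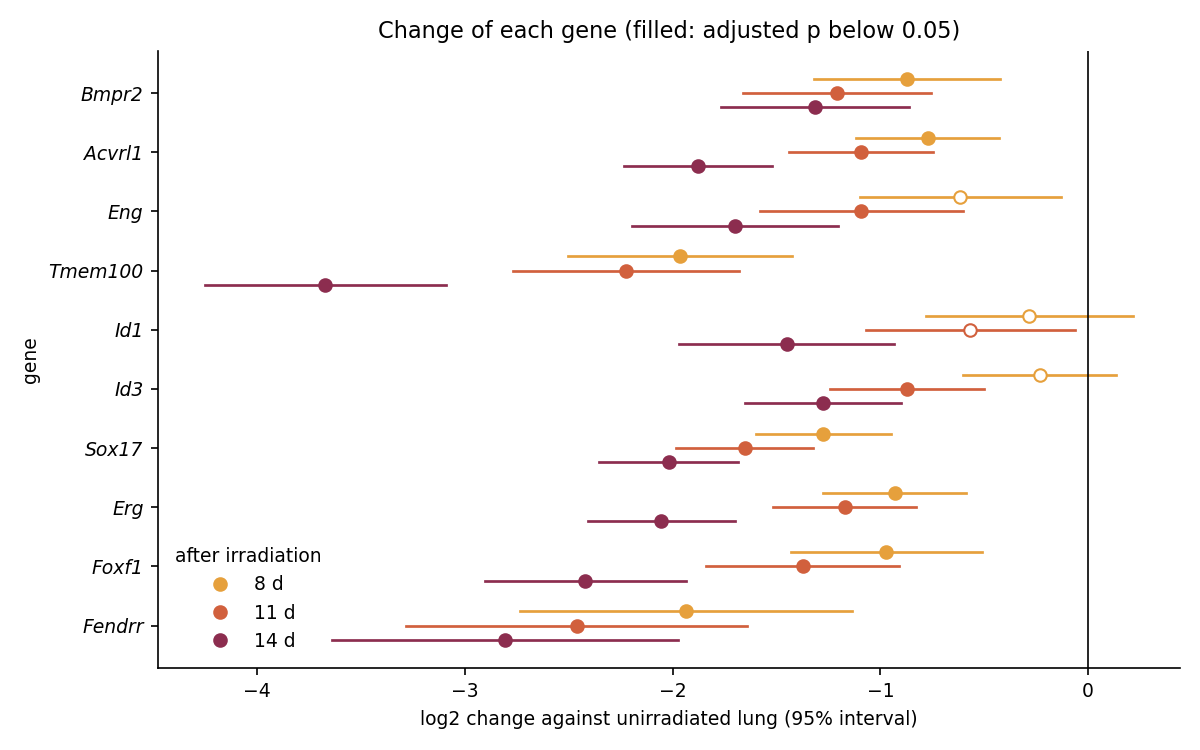
Log2 change of each of the 10 genes against unirradiated lung at 8, 11 and 14 d after irradiation, with 95% intervals from the edgeR fit of all 12 libraries. Filled points have an adjusted p below 0.05. The 3 open points at 8 d are Eng (-0.61), Id1 (-0.28) and Id3 (-0.23), and the open point at 11 d is Id1 (-0.57).

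The transcription factors all fell at 8 d and stood lowest at 14 d. Sox17, a SOX factor of arterial endothelium (chr1:4490931-4497354, minus strand), was the least abundant and measured 18.2, 20.8 and 17.5 CPM in the unirradiated libraries, 6.70, 7.97 and 8.67 CPM at 8 d, 5.49, 6.14 and 6.33 CPM at 11 d and 4.497, 4.22 and 5.22 CPM at 14 d. The 4 groups did not overlap at all, each later time lying below the one before. Sox17 had log2 changes of -1.27 (SE 0.15) at 8 d, -1.65 (SE 0.15) at 11 d and -2.02 (SE 0.16) at 14 d, with adjusted p of 5.14e-05, 3.35e-06 and 4.45e-07 (edgeR). Erg, an ETS factor that maintains endothelial junctions and identity (chr16:95359169-95586593, minus strand), measured 177, 192 and 189.8 CPM in the unirradiated libraries, 78.9, 109 and 105 CPM at 8 d, 74.3, 85.5 and 88.3 CPM at 11 d and 37.7, 41.0 and 55.9 CPM at 14 d. Replicate 1 of 8 d lay in the range of 11 d, and the 14 d libraries lay below all others. The log2 changes of -0.93 (SE 0.16) at 8 d, -1.17 (SE 0.16) at 11 d and -2.06 (SE 0.16) at 14 d had adjusted p of 7.94e-04, 6.90e-05 and 5.80e-07 (edgeR).

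Foxf1, a forkhead factor of lung endothelium and mesenchyme (chr8:121084386-121088144, plus strand), measured 181, 200.04 and 160.1 CPM in the unirradiated libraries, 75.1, 95.8 and 105 CPM at 8 d, 44.5, 86.3 and 77.8 CPM at 11 d and 27.2, 38.1 and 35.7 CPM at 14 d. Replicate 1 was the lowest at each time after irradiation, and 11 d replicates 2 and 3 lay in the range of 8 d, while 14 d lay below every other library. The log2 changes of -0.97 (SE 0.21) at 8 d, -1.37 (SE 0.22) at 11 d and -2.42 (SE 0.23) at 14 d had adjusted p of 0.00476, 2.24e-04 and 1.70e-06 (edgeR). Fendrr, its non-coding neighbour (chr8:121054882-121083110, minus strand), measured 81.2, 67.5 and 34.7 CPM in the unirradiated libraries, 16.4, 15.04 and 16.4 CPM at 8 d, 6.17, 17.6 and 9.54 CPM at 11 d and 8.10, 12.6 and 5.38 CPM at 14 d. The controls spread widely, with replicate 3 far below the other two, and still all 9 irradiated libraries lay below it. Fendrr had log2 changes of -1.94 (SE 0.37) at 8 d, -2.46 (SE 0.38) at 11 d and -2.81 (SE 0.39) at 14 d, with adjusted p of 0.00184, 1.96e-04 and 4.92e-05 (edgeR), and its standard errors were the largest of the 10 genes.

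The genes lie head to head, with 5′ ends 1276 bases apart on chromosome 8. The 250 bases upstream of the Fendrr start, which lie between them, are shown with the letters GTAAAC or GTTTAC, the core that forkhead proteins such as Foxf1 bind, and AGGAAG in capitals (GRCm38.p6, chr8:121083111-121083360, minus strand).
Fendrr: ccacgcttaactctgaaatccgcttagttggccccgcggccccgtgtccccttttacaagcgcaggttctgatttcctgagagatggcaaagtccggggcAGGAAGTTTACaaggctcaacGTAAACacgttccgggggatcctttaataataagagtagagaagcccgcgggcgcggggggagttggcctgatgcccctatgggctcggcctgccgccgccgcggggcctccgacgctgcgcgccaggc
The forkhead letters occur at -145 and -129 from the start, in a window where 6.92% of all promoters hold them at least once, and the first match shares 1 base with an AGGAAG at -150. No match to GGCGCC or CAGAC is in this window, and ATTGT, the core of SOX sites, is in none of the 4 windows printed (27.7% of all promoters hold it), nor is CGGAAG, another ETS core (13.6%). Of the 3 Erg windows, not printed, 1 holds ATTGT at -120, AGGAAG at -40 and CAGAC at -12, another holds CAGAC at -208, and the last holds none of the letters searched.

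Per library, the ratio of Fendrr to Foxf1 counts was 0.449, 0.338 and 0.216 in the controls, 0.218, 0.157 and 0.157 at 8 d, 0.139, 0.204 and 0.123 at 11 d and 0.298, 0.332 and 0.151 at 14 d. The 11 d ratios lay below all controls, 8 d replicate 1 lay just above the lowest control, and the 14 d ratios overlapped the controls. The mean log2 ratio differed from the controls by -0.87 at 8 d (exact two-sided permutation test, p = 0.2), by -1.08 at 11 d (exact permutation p = 0.1) and by -0.38 at 14 d (exact permutation p = 0.5). With 3 against 3 the smallest p this test allows is 0.1, so none of the 3 comparisons could pass 0.05, before or after adjustment over the 3.

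**Figure D4:**
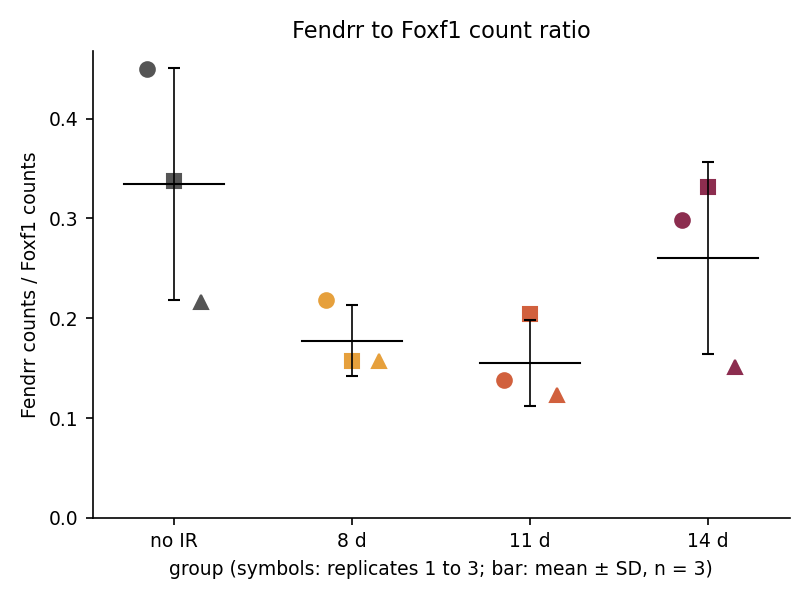
Ratio of Fendrr to Foxf1 counts in each library, on an axis that starts at 0, by group (circle, square and triangle for replicates 1, 2 and 3; bars are the mean ± SD of 3 libraries). The means are 0.334 ± 0.117 in the controls, 0.177 ± 0.0356 at 8 d, 0.155 ± 0.0432 at 11 d and 0.260 ± 0.0962 at 14 d.

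Genes linked to Foxf1 in mouse lung endothelium were also lower. Of 6 listed 4 were lower at 8 d and all 6 at 11 d and 14 d, with median log2 changes of -1.05, -1.24 and -1.93. Tek, the angiopoietin receptor, stood at 518 ± 23.0 CPM without irradiation and 53.1 ± 6.94 CPM at 14 d, and the receptor kinase gene Kit fell by 1.96, 2.28 and 2.43 (log2). Flt1, a receptor for VEGF, went from 288 ± 47.3 CPM to 76.6 ± 15.8 CPM at 14 d, and Kdr, the main signalling receptor for VEGF, from 499.9 ± 95.8 CPM to 398 ± 69.3 CPM at 8 d (not passed) and 129 ± 33.3 CPM at 14 d. Of 27 other endothelial transcription factors 25 were tested, and 12, 17 and 16 were lower and 1 higher at each time, with median log2 changes of -0.60, -0.90 and -0.99. Epas1, the hypoxia-inducible factor 2 alpha, fell from 5469 ± 623 CPM to 1584 ± 435 CPM at 8 d and 726 ± 124 CPM at 14 d, and the ETS factor Ets2 and the T-box factor Tbx2 fell by 1.67 and 1.69 (log2) at 14 d. The factor that was higher differed by time. At 8 d it was Bcl6b (14.5 ± 3.15 to 40.5 ± 0.868 CPM), a repressor induced by VEGF, at 11 d Fli1 (0.56, log2), an ETS relative of Erg that leukocytes also express, and at 14 d Lyl1 (0.94), a blood and endothelial factor. The leukocyte markers, which rose at each time as given above, were not tested for a part in the last 2. Foxc2 and Nkx2-3 were under the filter.

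The 10 genes were set against 12 general endothelial markers of the same library, among them Pecam1 and Cdh5, which encode CD31 and VE-cadherin. The summed markers went from 3882 to 3978 CPM to 2878 to 2959, 1865 to 2626 and 1284 to 1537 CPM. Of the 12 markers 5, 8 and 11 were lower at 8 d, 11 d and 14 d, and Mmrn2 was higher at each time. Relative to this sum, Tmem100 differed from unirradiated lung by -1.56 (SD 0.33, n = 3), -1.46 (SD 0.41) and -2.23 (SD 0.24) on the log2 scale at 8 d, 11 d and 14 d. Fendrr differed by -1.42, -1.68 and -1.34, Sox17 by -0.85, -0.83 and -0.55, and Foxf1 by -0.55, -0.60 and -0.96. Erg differed by -0.52, -0.35 and -0.61, Acvrl1 by -0.35, -0.29 and -0.41, and Eng by -0.22, -0.31 and -0.24. Bmpr2 differed by -0.49 at 8 d (SD 0.49), -0.40 at 11 d (SD 0.03) and 0.14 at 14 d (SD 0.31). Its 8 d libraries lay at 0.03, -0.96 and -0.54, the first of them among the controls, and the 8 d value was -0.26 without replicate 2. Id1 (0.11, 0.24 and -0.02) and Id3 (0.18, -0.05 and 0.17) stayed near the sum, and at no time did all 3 libraries lie below all controls for either gene.

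On this relative scale all 3 libraries lay below all controls for 6 genes at 8 d (Tmem100, Acvrl1, Sox17, Foxf1, Fendrr and Erg), where 4.56% of all genes tested did so. At 11 d there were 7 (Tmem100, Bmpr2, Eng, Sox17, Foxf1, Fendrr and Erg; 3.38% of all genes), and at 14 d the same 6 as at 8 d (1.6%). The sum itself stood at 74.3%, 57.1% and 36.3% of its unirradiated mean at 8 d, 11 d and 14 d. A gene with unchanged CPM therefore rises on this scale. The shares of all genes are small partly for that reason and do not measure how unusual the 10 genes are. With the mean of the markers' log2 CPM in place of their sum every one of the 10 genes lay lower, with shifts of -0.14 at 14 d to -0.19 at 8 d, which turned the sign of Id1 (-0.08) and Id3 (-0.01) at 8 d. These are descriptions, since the markers themselves changed unequally. Markers of endothelial subtypes differed as well, and some of them are on the lists above (Kit of the general capillary markers, Kdr and Tbx2 of the aerocyte markers, and Hey1, Gja4 and Gja5 of the arterial markers). All 6 general capillary markers were lower at each time, their sum going from 3426 to 3739 CPM to 1157 to 1237 CPM at 8 d and 668 to 862 CPM at 14 d. The aerocyte markers summed to 1137 to 1295, 814 to 899 and 250.4 to 349 CPM, and the arterial markers to 573 to 605, 278 to 293 and 178 to 228 CPM at the same points. Of the 6 aerocyte markers 4, 5 and 5 were called lower at 8 d, 11 d and 14 d, and Apln was higher at 8 d and 11 d. Of the 8 arterial markers 5, 6 and 6 were called lower, and Dkk2 was higher at 14 d. For Foxf1, Fendrr and Bmpr2, which mesenchymal cells also express, the pericyte and smooth muscle markers summed to 716 to 866 CPM without irradiation, 558 to 805 at 8 d and 394 to 448 at 14 d, and the fibroblast markers to 1417 to 1839, 1874 to 2610.5 and 1878 to 2291 CPM. The fibroblast list was split. Of its 10 markers the 3 collagen genes Col1a1, Col1a2 and Col3a1 were called higher at each time. Another 3, 5 and 5 were called lower at 8 d, 11 d and 14 d, and the median log2 changes were -0.36, -0.53 and -0.59. Epithelial and mesothelial markers were lower too. The alveolar type 1 markers, of which 3, 5 and 6 of 6 were called lower at 8 d, 11 d and 14 d, summed to 6036 to 6294 CPM without irradiation and 2527 to 3047 CPM at 14 d. The alveolar type 2 markers (2, 4 and 4 of 6 lower) summed to 16707 to 18701 CPM at 14 d, 53.8% of the unirradiated mean, the airway markers (2 of 3 tested lower at 14 d) stood at 27.3% and the mesothelial markers (4 of 4 lower) at 14.1%. Nearly all of the airway sum was the club cell gene Scgb1a1. The ciliated cell gene Foxj1 measured 39.3 ± 5.97 CPM without irradiation and 38.5 ± 14.8 CPM at 14 d. At 14 d the venous markers (4 of 5 lower) stood at 35.6%, the lymphatic markers (3 of 5 lower) at 23.3% and the red cell markers (5 of 5 lower) at 28.2%. The macrophage and monocyte markers (6 of 6 higher) stood at 241%, the lymphocyte markers (3 of 5 higher) at 229% and those of dividing cells (5 of 5 higher) at 343%. The part of these cell types in the result was not tested.

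**Figure D5:**
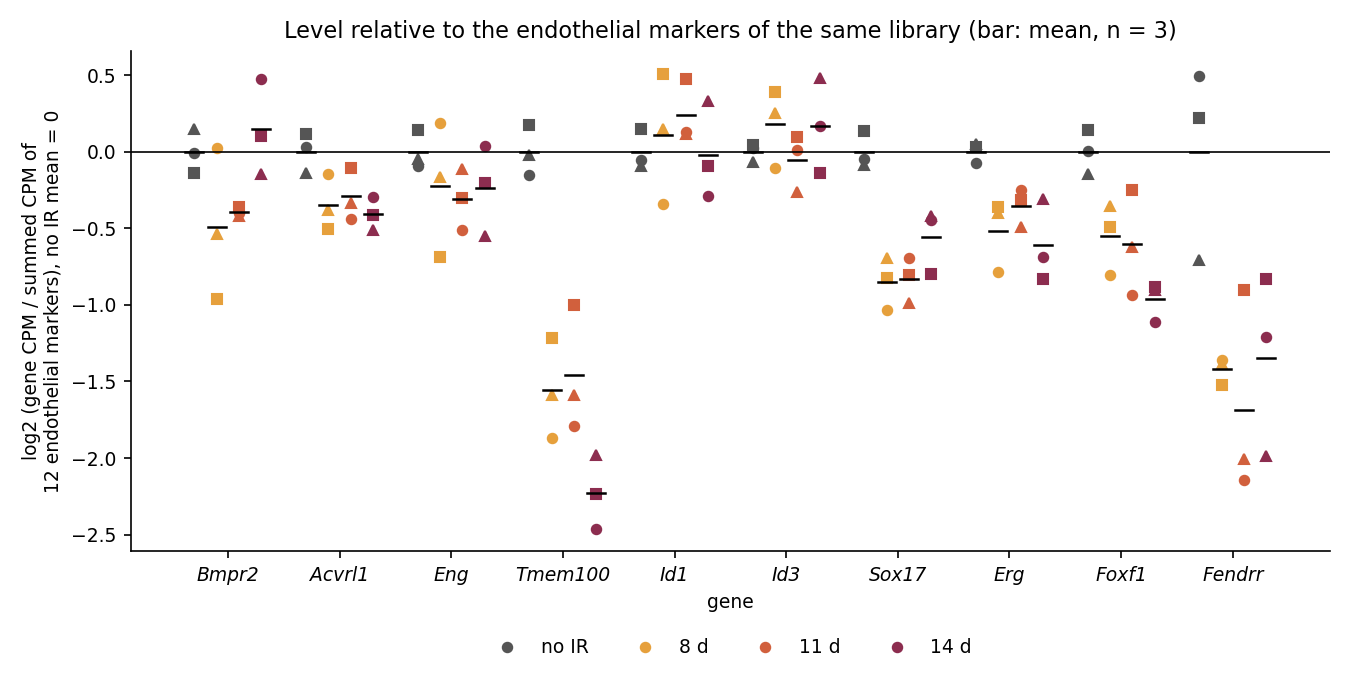
Log2 ratio of each gene's CPM to the summed CPM of 12 endothelial markers in the same library, with the mean of unirradiated lung set to 0 (points are libraries with the symbols as above, bars the mean of 3). Tmem100, Fendrr, Sox17, Foxf1 and Erg lie below the controls at all 3 times, and Id1 and Id3 scatter around 0.

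For each of the 10 genes, the genes with the nearest profile over the 12 libraries were named. Nearness was the root mean square difference of log2 CPM, centred on unirradiated lung. The search covered 11513 tested genes that averaged 5 CPM or more. It left out symbols of the Gm and Rik kinds and the microRNA, immunoglobulin and haemoglobin genes. Acvrl1 had the nearest neighbours, with Slc9a3r2 at 0.0827 log2 units, Rasip1, an endothelial Ras-interacting protein, at 0.110 and Ushbp1 at 0.118. Tmem100 was nearest to Hpgd, which degrades prostaglandins and is on the general capillary list (0.140), followed by Fmo1 (0.250) and Tek (0.271). Erg was nearest to Sdpr (0.143) and Cav1 (0.148), which both encode proteins of caveolae, membrane pits that endothelial and other cells have. Id1 was nearest to Egfl7 (0.176), Id3 to Tmem47 (0.153), Eng to Kank4 (0.170), Bmpr2 to Clstn2 (0.131) and Sox17 to Slc16a9 (0.166), then Tspan2 and Hey1 (0.190). Foxf1 was nearest to Tmcc2 (0.181) and then to Smad6 (0.196). The nearest gene to Fendrr, the noradrenaline transporter gene Slc6a2, lay further off at 0.355. The difference is taken over single libraries and includes their scatter, which was wide for Fendrr (34.7 to 81.2 CPM in the controls). Within the set Acvrl1 and Eng were each other's nearest at 0.197 log2 units, as were Id1 and Id3 at 0.221 and Sox17 and Erg at 0.278.

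Between the times, none of the 10 genes passed from 8 d to 11 d, while Tmem100, Foxf1, Erg and Acvrl1 fell further from 11 d to 14 d. For the first of these steps the edgeR test called 0 of the 10 genes (2 at an unadjusted p under 0.05, Id3 and Sox17), where 0.394% of all genes were called lower, limma-voom called 0 and DESeq2 called 1, Id3. Id3 had a log2 change of -0.64 (SE 0.17, adjusted p = 0.0731, edgeR), and in CPM Id3 and Sox17 lay below all 8 d libraries in all 3 of 11 d (8.72% of all genes tested). From 11 d to 14 d the test called 4 lower, against 0.983% of all genes. These were Tmem100 (-1.45, SE 0.25, adjusted p = 0.0145), Foxf1 (-1.05, SE 0.22, adjusted p = 0.0296), Erg (-0.88, SE 0.16, adjusted p = 0.0164) and Acvrl1 (-0.78, SE 0.16, adjusted p = 0.0286), and 6 of the 10 genes had all 14 d libraries below all of 11 d (11.7% of all genes). This count rests on few libraries, being 0 without 11 d replicate 2, 11 d replicate 3 or 14 d replicate 1, 1 (Tmem100) without 14 d replicate 2, 3 without 14 d replicate 3, and 2 in a fit of only these 2 groups, while the log2 change of the 4 genes stayed between -1.69 and -0.69 in all settings. Bmpr2 (-0.11, 95% interval -0.55 to 0.34) and Fendrr (-0.35, 95% interval -1.16 to 0.47) had the smallest estimates.

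From 8 d to 14 d 8 of the 10 genes were called lower, against 7.29% of all genes (edgeR), and 9 had all 14 d libraries below all of 8 d (14.9%). Those called were led by Tmem100 (-1.71, SE 0.25), Foxf1 (-1.45, SE 0.22) and Id1 (-1.17, SE 0.24). Bmpr2 (-0.44, 95% interval -0.89 to 0.00, adjusted p = 0.180) and Fendrr (-0.87, 95% interval -1.68 to -0.06, adjusted p = 0.144) did not pass, though Bmpr2 did without 8 d replicate 2 (adjusted p = 0.0324). As a share of its 14 d log2 change, the 8 d change was 69.0% for Fendrr, 66.2% for Bmpr2, 63.1% for Sox17 and 53.5% for Tmem100, between 36.2% and 45.3% for Eng, Foxf1, Acvrl1 and Erg, and 19.5% and 18.3% for Id1 and Id3. These shares are point estimates with no test of their order.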

How the data were processed

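The files hold read counts per gene symbol, deposited by the authors for 12 mouse lung libraries, 23282 lines each. Per the submitters' processing notes the reads were aligned with TopHat and the build is mm10. No source used here gives the counting program, the annotation or the strand setting. Each library was made from 1.3 µg of Trizol-extracted total RNA with a NEBNext directional kit, per the labels' protocols. Groups and replicate numbers come from the sample titles. Counts of 35 symbols on more than 1 line were summed, none of them among the 10 genes.

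Groups were compared with edgeR 4.0.16 in R 4.3.3 (glmQLFit and glmQLFTest), in 1 fit of all 12 libraries with the default expression filter, which removed 6754 of 23238 symbols, and TMM scaling. Benjamini-Hochberg adjustment ran over all 16484 genes, and a call is an adjusted p below 0.05. Standard errors were taken as the size of the log2 change over the square root of F, and values after ± are SD over 3 libraries. Libraries of a group differed beyond counting noise, so none was counted as a duplicate. Positions and exon lengths come from GENCODE M21 and promoters from RefSeq, both on GRCm38. For profile comparisons 0.5 CPM was added before log2. The settings tried beside it were other filters, scaling by median-of-ratios or by library size alone, DESeq2 1.42.0, limma-voom (limma 3.58.1), only the groups compared, a replicate block, removal of Rn45s and haemoglobin genes, and each library left out. The 10 genes and the gene lists were chosen with earlier results of these data known, and 1 gene of the antagonist list is not reported here. Per pathway list the text names up to 4 genes with the lowest joint p, called genes that went against their list, and genes under the filter; others are said to be named after their values were seen. On counts simulated after 8 d and unirradiated lung (16066 genes), the share of altered genes recovered was 13.4% at 1.5-fold, 76.1% at 2-fold and 98.4% at 4-fold, with 10 false calls among 134. There 67, 71 and 62 genes of higher counts were altered, and only the 2 groups were fitted. At 8 d the data themselves had 1752 genes called lower and 2139 higher in the 12-library fit. The shares recovered therefore do not measure the power of the tests reported.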

Additional observations from a re-analysis of the deposited data

Results flagged for a closer look

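For these genes the change against unirradiated lung differed between 2 times by the direct edgeR test of one time against the other, at an adjusted p below 0.05. Between 11 d and 14 d the log2 difference was -1.45 for Tmem100, -0.78 for Acvrl1, -1.05 for Foxf1 and -0.88 for Erg. Between 8 d and 14 d it was -1.71 for Tmem100, -1.10 for Acvrl1, -1.08 for Eng, -1.17 for Id1, -1.04 for Id3, -0.74 for Sox17, -1.45 for Foxf1 and -1.12 for Erg. All values are lower at the later time, with 3 libraries per group.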

How the results depend on the processing

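Against unirradiated lung, 7 to 8 of the 10 genes were called lower at 8 d, 9 to 10 at 11 d and 10 at 14 d under every alternative, and the joint test called all 10. Leaving out 1 library gave the same ranges at the 3 times and 2593 to 3997, 4426 to 6760 and 5184 to 6925 genes called over the transcriptome, with the 2593 at 8 d reached without unirradiated replicate 1. Between times the counts were less stable. From 8 d to 11 d 353 genes were called, 143 in a fit of only the 2 groups and 852 with DESeq2, and 1 of the 10 genes, Id3, with library size alone or DESeq2. Leaving out 1 library gave 2 to 545 genes and 0 to 1 of the 10. From 11 d to 14 d 296 genes were called, 821 with DESeq2, and of the 10 genes 2 in a fit of only the 2 groups; leaving out 1 library gave 13 to 681 genes and 0 to 5 of the 10. It gave 1392 to 2599 genes and 8 to 9 of the 10 between 8 d and 14 d. From 11 d to 14 d the sign turned for estimates near 0, namely Fendrr (0.16 without 11 d replicate 2; range with 1 library left out -0.72 to 0.16) and Bmpr2 (0.0058 without 11 d replicate 3 and 0.0079 without 14 d replicate 3; range -0.23 to 0.0079). The cause was not tested.

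With the replicate number as a block, 7, 10 and 10 of the 10 genes were called lower at 8 d, 11 d and 14 d, 0 between 8 d and 11 d, 5 from 11 d to 14 d, where Id1 was added as at 11 d (adjusted p = 0.0192 at 11 d and 0.0274 between the times, edgeR), and 8 from 8 d to 14 d, and 3704, 5921, 6288, 391, 425 and 2476 genes in all. Deviations from the group mean correlated over 0.1 in 5 of 18 same-numbered pairs and in 7 of 36 other pairs. Between unirradiated and 8 d lung the same-numbered pairs were all positive (0.164, 0.0895 and 0.168) and the others all negative. Between 8 d and 14 d the same-numbered pairs were mixed (0.287, -0.353 and -0.0804). Of 12 libraries 5 correlated best with their own number, so no steady pairing was seen over the groups. Scaling by library size alone shifted the median of all genes from 8 d to 11 d to -0.10 and gave 60.6% rises among the genes called in place of 81.6%. It also moved the share of rises to 64.3% from 55% at 8 d, to 54.9% from 45.3% between 11 d and 14 d, and to 43.4% from 52.6% between 8 d and 14 d.

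With the mean of the markers' log2 CPM in place of their sum, values relative to endothelium moved by more than 1 SD to -0.58 for Bmpr2 at 11 d, -0.53, -0.48 and -0.55 for Acvrl1 at the 3 times, -1.04 and -1.01 for Sox17 at 8 d and 11 d, -1.10 for Foxf1 at 14 d, -1.61 for Fendrr at 8 d and -0.54 for Erg at 11 d. The log2 Fendrr to Foxf1 ratio kept its direction in all settings, and at 14 d it lay between -0.66 and -0.03 with 1 library left out. With 3 libraries per group, a gene that did not pass may still differ.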
